A study of Saccharomyces cerevisiae with 17 samples.

Results

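Yeast cells that lacked the repressor Ume6 and carried the engineered remodeler Chd1-Ume6 were compared with cells that lacked Ume6 and had no fusion. RNA levels came from 2 deposited tables, and each table held 1 library of each group, so the comparison rested on 4 of the 15 deposited columns. Every gene with usable values was included, which left 6241 of the 6644 genes listed in both tables. All strains were *Saccharomyces cerevisiae* W303, grown to an optical density at 600 nm between 0.4 and 0.6. The groups used were *ume6* with Chd1-Ume6 (2 columns), *ume6* with a catalytically inactive Chd1-Ume6 (1 column), *ume6* (2 columns), *rrp6* with Chd1-Ume6 (2 columns), *rrp6* (2 columns), wild type with Chd1-Ume6 (2 columns) and wild type (1 column, by its digits a mean made by the authors). Deletions of *rpd3*, of *isw2* and of both, with 1 column each, entered the fit and the comparison of chromosomes only. The *rrp6* strains lack a nuclear exosome subunit and are not labelled as lacking *UME6*, which was at 10.9 and 9.38 FPKM in them without the fusion. Isolates are numbered in the labels with no mention of separate cultures, so each p-value measures the spread among deposited columns, which may be technical. For the promoter that drives the fusion, and for the growth medium, the sources used here give nothing.

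Ume6 is a zinc-cluster protein that recognises URS1, a DNA element found before many early meiotic genes and some metabolic genes. During growth without meiosis it recruits the histone deacetylase Rpd3 and the nucleosome-sliding enzyme Isw2, and both help to keep those genes off. Chd1 is another enzyme that uses ATP to slide nucleosomes. In the fusion Chd1 is joined to the DNA-binding part of Ume6, which is meant to bring the sliding activity to URS1 sites. Levels are given as FPKM (fragments scaled by transcript length and library size), and differences as log2(FPKM + 1), a scale that understates the differences of genes with low FPKM. Sequencing depth is unknown because no counts were given.

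The engineered genes were compared with the labels first. *UME6* was listed at 65.5 and 73.4 FPKM in *ume6* with Chd1-Ume6 and at 113 FPKM with the inactive fusion, against 0.0536 FPKM in the first *ume6* column and a missing value in the other. Reads of the fusion also fall on *CHD1*, which was at 836 and 1075 FPKM in *ume6* with Chd1-Ume6, against 31.0 and 22.4 FPKM in *ume6*. With the inactive fusion *CHD1* was at 1608 FPKM, above both Chd1-Ume6 columns. *CHD1* rose by 5.12 ± 0.23 (SE, limma adjusted p = 6.11e-05, n = 2 against 2). *URA3*, a uracil synthesis gene often used as a selectable marker, was at 545 and 761 FPKM with Chd1-Ume6 and 1213 FPKM with the inactive fusion. In *ume6* alone *URA3* was at 107 and 114 FPKM. It rose by 2.53 ± 0.22 (SE, limma adjusted p = 0.00689). The unnamed gene YOL085C followed the same pattern over strains. It was at 51.1 and 58.5 FPKM with Chd1-Ume6 and 71.8 FPKM with the inactive fusion, against 3.37 and 6.59 FPKM in *ume6*, a rise of 3.27 ± 0.33 (SE, limma adjusted p = 0.0129). All 3 genes were also higher in *rrp6* with Chd1-Ume6 than in *rrp6* alone, YOL085C for example at 24.7 and 38.8 FPKM against 8.27 and 4.73 FPKM.

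The sequences that the fusion is meant to bind are shown for genes on which the results turn. They come from the S288C reference of RefSeq (build R64), because no build is named for the deposited values, and W303 may differ. Each run reads 5′ to 3′ on the strand of the gene, with the URS1 core GGCGGC, or GCCGCC where the core lies on the opposite strand, in capitals and 20 bases on each side. *IME2* encodes a kinase that drives entry into meiosis, and its pair of cores lies 550 and 455 bases before the start codon (chrX:220820-220865 and chrX:220915-220960, plus strand).
IME2 distal: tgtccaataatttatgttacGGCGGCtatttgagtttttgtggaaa
IME2 proximal: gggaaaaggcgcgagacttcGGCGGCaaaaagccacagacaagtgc
*HED1* is an early meiotic gene, and its core lies 68 bases before the start codon (chrIV:477709-477754, plus strand). *SAE3* encodes a partner of the meiotic recombinase Dmc1, with a core at 109 bases (chrVIII:262637-262682, minus strand). *SPO13* encodes a regulator of the first meiotic division, with a core at 95 bases (chrVIII:131932-131977, plus strand).
HED1: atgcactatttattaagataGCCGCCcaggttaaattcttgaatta
SAE3: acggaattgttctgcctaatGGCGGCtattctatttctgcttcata
SPO13: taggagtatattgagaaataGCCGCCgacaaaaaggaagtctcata
*INO1* encodes inositol-3-phosphate synthase, with cores at 258 and 146 bases (chrX:136166-136211 and chrX:136054-136099, minus strand). *CAR1* encodes arginase, with a core at 155 bases (chrXVI:339769-339814, plus strand).
INO1 distal: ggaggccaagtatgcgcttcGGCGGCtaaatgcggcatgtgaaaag
INO1 proximal: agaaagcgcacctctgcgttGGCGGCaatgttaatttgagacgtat
CAR1: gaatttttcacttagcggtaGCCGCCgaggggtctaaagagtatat
*HOP1*, a protein of the meiotic chromosome axis, and *SPO22*, a crossover factor, are divergent neighbours and share both of their cores. Read on the strand of *HOP1*, the cores lie 529 and 171 bases before its start codon (chrIX:226053-226098 and chrIX:226411-226456, plus strand).
HOP1 distal: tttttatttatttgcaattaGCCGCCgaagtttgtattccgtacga
HOP1 proximal: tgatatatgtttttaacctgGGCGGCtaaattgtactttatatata
The core occurred within 600 bases before the start codon in 11.4% of 5999 promoters of the reference, and in 25 of the 39 early meiotic genes that were tested.

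A whole chromosome separated the groups before any single pathway did. The 231 genes of chromosome IX had a median difference of 0.86 in the first table and 0.98 in the workbook, that is 1.81-fold and 1.97-fold higher with Chd1-Ume6. On this chromosome 222 genes were higher with the fusion in both tables, which is 96.1%, against 38.9% of all genes. The left arm had medians of 0.85 and 0.98 and the right arm 0.93 and 1.07, and in 10 equal stretches along the chromosome the medians lay between 0.76 and 0.94 in the first table and between 0.94 and 1.10 in the workbook. The other 14 chromosomes, leaving out III, had medians between -0.01 and 0.06 in the first table and between -0.03 and 0.14 in the workbook.

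**Figure D1:**
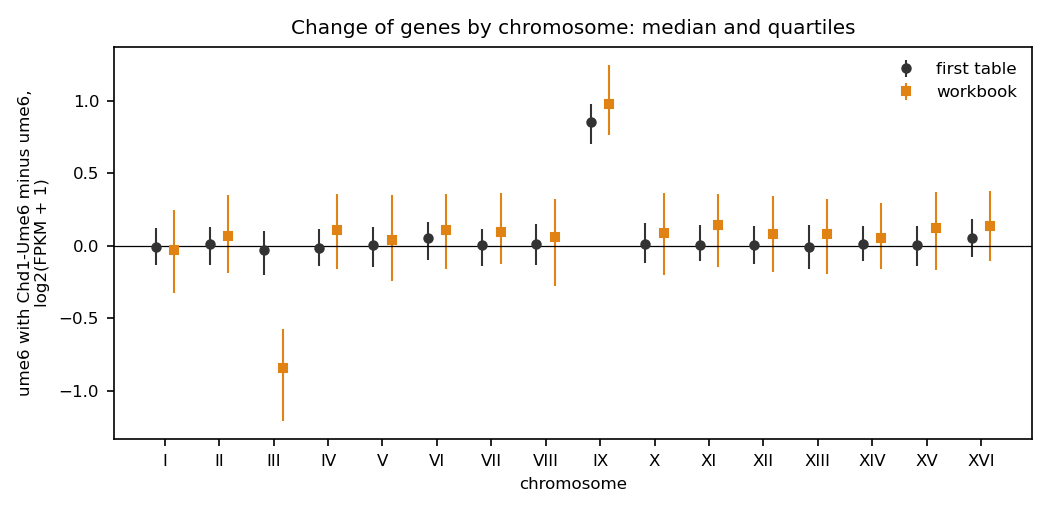
Median difference, with quartiles, of ume6 with Chd1-Ume6 minus ume6 for the genes of each chromosome, in log2(FPKM + 1). Points are the first table (circles) and the workbook (squares). Chromosome IX sits at 0.86 and 0.98, and chromosome III at -0.03 in the first table and -0.85 in the workbook.

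Each gene was set against its median over the columns of its table, and each column was then centred on its own median. On this scale chromosome IX genes stood 0.92 and 0.86 higher in the libraries with Chd1-Ume6 in *ume6*. They stood between -0.10 and 0.06 in the other 13 columns, the inactive fusion and the fusion in wild type or *rrp6* among them. Chromosome III stood apart in 1 library, the *ume6* library of the workbook, where its genes were 0.74 higher on the same scale. Its 169 genes therefore had a median difference of -0.85 in the workbook but -0.03 in the first table. Chromosome XVI was high both with Chd1-Ume6 (0.67 and 0.58) and in *ume6* alone (0.63 and 0.48), so it moved the present comparison little (0.05 and 0.13). It stood at -0.17 in wild type. Its median was 0.39 for Chd1-Ume6 minus the inactive fusion and -0.41 for the fusion in *rrp6* minus *rrp6*. Levels of its genes, such as *CAR1* and *OYE3*, carry this shift when set against those groups. RNA was measured and DNA content was not, and what sets these chromosomes apart was not tested. For genes of chromosomes III and IX, values are also given below from a fit in which each chromosome was centred on its median in every column, a choice made after seeing the data.

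**Figure D2:**
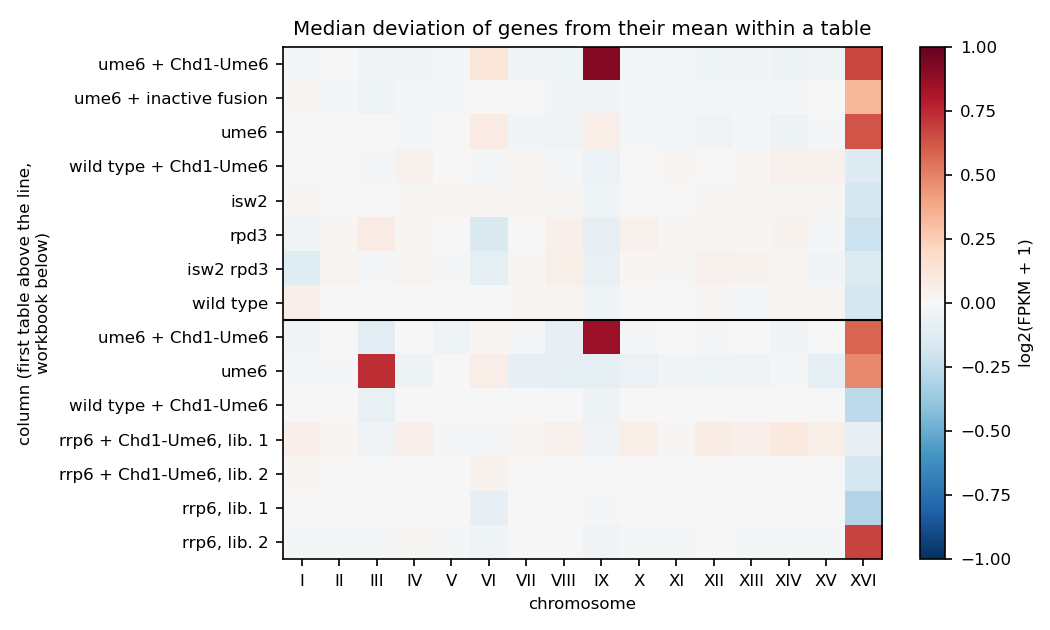
Median deviation of each chromosome's genes from their median within a table, in log2(FPKM + 1), for the 15 columns (rows) and 16 chromosomes. Each column was centred on its own median, and the word mean in the title stands for the gene's median. Chromosome IX is high in both columns of ume6 with Chd1-Ume6, chromosome III in the workbook column of ume6, and chromosome XVI in the ume6 columns with and without Chd1-Ume6, in the inactive fusion and in rrp6 library 2.

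Few genes passed the test across all genes, and 9 of the 13 that rose either lie on chromosome IX or belong to the oxidative stress group described below. With limma and Benjamini-Hochberg adjustment, 13 genes rose with Chd1-Ume6 (0.208% of genes) and 1 fell (0.016%), while 584 were at an unadjusted p under 0.05. The gene that fell was the small reading frame YPR108W-A, at 4.99 and 9.10 FPKM with Chd1-Ume6, against 20.3 and 30.3 FPKM in *ume6* (-1.73 ± 0.24 SE, adjusted p = 0.0456). It was also low with the inactive fusion (4.63 FPKM) and in wild type (3.33 FPKM), and it is not in the reference table. Of the 13 that rose, 4 lie on chromosome IX and 2 on chromosome III. The 4 are *SDL1* (2.44 ± 0.29), *CFD1*, an assembly factor for iron-sulfur proteins (1.72 ± 0.22), *RSM25*, a mitochondrial ribosomal protein (1.36 ± 0.19), and *DOT5*, a nuclear thiol peroxidase (1.32 ± 0.19). None of these 4 passed with chromosomes centred, where *SDL1* had the largest difference at 1.5 (adjusted p = 0.137) and *DOT5* the smallest at 0.38 (adjusted p = 0.774). With chromosomes centred 7 genes were called (0.112%), all of them among the 14, namely *CHD1*, *URA3*, YOL085C, YOL150C, *GRE2*, *AAD4* and *HBN1*. No gene with the authors' motif entry passed in either fit.

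A plain count of fold differences showed the same division. At least 2-fold higher with Chd1-Ume6 in both tables were 59 genes (0.945%), of which 33 lie on chromosome IX, and at least 2-fold lower were 34 genes (0.545%), of which 0 lie on IX and 4 on III. The 10 largest differences upward were those of *CHD1*, YOL085C, YOL150C, *OYE3*, *GRE2*, *OSI1*, *AAD16*, *AAD4*, *AAD6* and *URA3*. The 10 with the most negative differences were YOL013W-A (-3.79), *ADY2* (-2.80), YHR180W-A (-2.32), *SPL2* (-2.30), *PHO89* (-2.27), *GIT1* (-2.24), *HXT2* (-2.14), *PHO5* (-2.09), *PHO84* (-2.09) and *HIS4* (-1.83). None of these 10 passed the limma test, where the lowest adjusted p was that of *ADY2* (0.0784). They include phosphate and glycerophosphoinositol transporters, a hexose transporter (*HXT2*) and the acetate transporter gene *ADY2*. *ADY2*, *GIT1* and *HIS4* lie on chromosome III, where centring gave -2.40, -1.85 and -1.44.

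Early meiotic genes stood lower with the fusion in part of the list, by up to 2.37-fold (*SLZ1*), and 35 of 39 stood above wild type in the first table. Of the 39 tested, 19 were lower in both tables (48.7%, against 25.8% of all genes) and 8 were higher in both (20.5%, against 38.9%). The median was -0.19, or -0.25 with chromosomes centred, against 0.06 and -0.01 for all genes. By table the median of these 39 was -0.20 in the first table and -0.05 in the workbook. In the first table, where both groups have the wild type column beside them, the list's median stood 1.83 above wild type with Chd1-Ume6, 1.94 with the inactive fusion and 2.10 in *ume6*. These 3 values share the wild type column. None of the 39 passed the limma test.

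Regulators of meiotic entry included the genes with the clearest difference. *IME2* was at 35.3 and 30.8 FPKM with Chd1-Ume6, 60.5 FPKM with the inactive fusion, 70.7 and 76.7 FPKM in *ume6* and 5.77 FPKM in wild type. The Chd1-Ume6 libraries lay below both *ume6* libraries and above wild type. The difference was -1.13 ± 0.20 (SE, limma adjusted p = 0.0765, n = 2 against 2), and -1.19 with chromosomes centred. *SLZ1*, which acts in the methylation of meiotic messenger RNA, was at 29.3 and 46.3 FPKM with Chd1-Ume6, against 67.5 and 116 FPKM in *ume6* (-1.24 ± 0.29, adjusted p = 0.108). *SPO13* was at 16.3 and 14.1 FPKM, against 34.8 and 27.9 FPKM in *ume6* (-1.0 ± 0.27, adjusted p = 0.193), and *RIM4*, an RNA-binding regulator of meiosis, differed by -0.84 ± 0.23 (adjusted p = 0.195). Both Chd1-Ume6 libraries lay below both *ume6* libraries for these genes, as they did for 13.9% of all genes, while they lay above both for 22% of all genes. *IME1*, the master activator of early meiosis, was low in all 4 libraries (2.84 to 3.41 FPKM) and differed by -0.04. The 9 regulators had a median of -0.04, with 4 lower and 1 higher in both tables.

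Among the 13 genes of strand exchange and crossing over, 6 were lower and 3 higher in both tables (median -0.19). By table the median was -0.31 in the first table and 0.13 in the workbook, so the sign differed. *HED1* was at 31.0 and 30.8 FPKM with Chd1-Ume6, 45.1 FPKM with the inactive fusion, 61.5 and 66.4 FPKM in *ume6* and 0.355 FPKM in wild type (-1.02 ± 0.21 SE, limma adjusted p = 0.0827). *SAE3* was at 49.5 and 62.8 FPKM with Chd1-Ume6, 91.8 FPKM with the inactive fusion and 105 and 103 FPKM in *ume6* (-0.89 ± 0.24, adjusted p = 0.191). For both genes the Chd1-Ume6 libraries lay below the *ume6* libraries, as for 13.9% of all genes, with the inactive fusion between them. *CST9*, a crossover factor also called Zip3, differed by -0.66 ± 0.20 (adjusted p = 0.246). *SPO22* pointed the other way at 16.8 and 15 FPKM with Chd1-Ume6, against 12.7 and 8.15 FPKM in *ume6* (0.59 ± 0.22, adjusted p = 0.374).

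The 10 genes of the chromosome axis and synapsis had a median of -0.40, with 7 lower and 2 higher in both tables. *NDJ1*, which tethers telomeres in meiosis, was at 32.1 and 29.9 FPKM with Chd1-Ume6, against 69.9 and 74.8 FPKM in *ume6* and 31.1 FPKM in wild type. Its difference of -1.19 had a wide error (0.50 SE, limma adjusted p = 0.496). *MEK1*, a kinase of the meiotic axis, differed by -0.79 ± 0.27 (adjusted p = 0.34), *RED1*, an axis protein, by -0.63 ± 0.22 (adjusted p = 0.353) and *REC8*, the meiotic cohesin subunit, by -0.52 ± 0.29 (adjusted p = 0.729). *HOP1* went the other way, at 86.6 and 98.5 FPKM with Chd1-Ume6, against 60.3 and 43.6 FPKM in *ume6* (0.84 ± 0.27, adjusted p = 0.305). *HOP1* and *SPO22* are the 2 early meiotic genes on chromosome IX. With chromosomes centred their differences turned to -0.11 and -0.35. The 7 double-strand break genes had a median of 0.01 (-0.10 in the first table and 0.09 in the workbook), with 2 lower and 2 higher in both tables. *REC104*, part of the complex that makes the breaks, was the lowest of them at -0.78 ± 0.38 (adjusted p = 0.642).

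**Figure D3:**
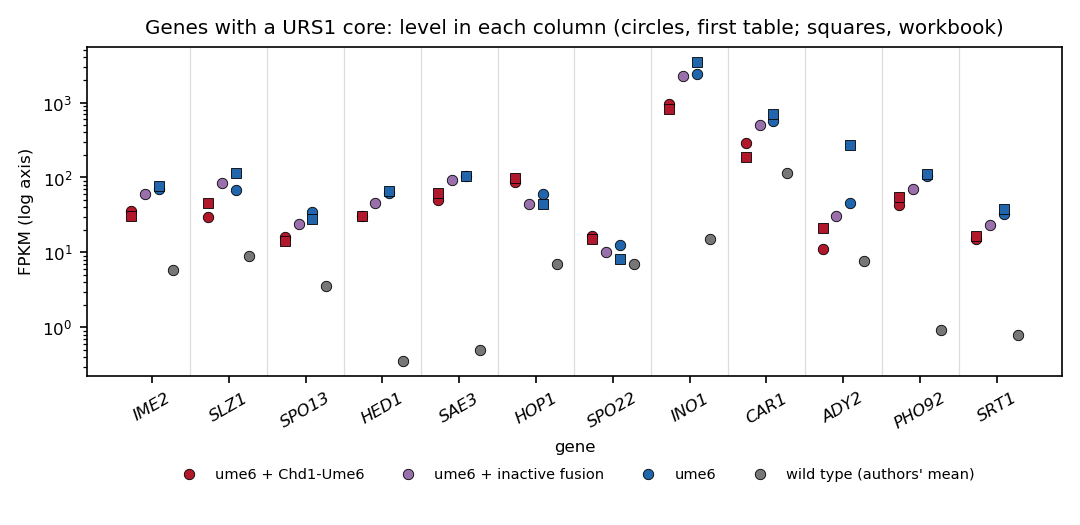
FPKM on a log axis of 12 genes with a URS1 core, in each column of ume6 with Chd1-Ume6, ume6 with the inactive fusion, ume6 and wild type (authors' mean). Circles are the first table and squares the workbook. IME2 with Chd1-Ume6 (35.3 and 30.8) lies below ume6 (70.7 and 76.7), while HOP1 and SPO22 of chromosome IX lie above ume6.

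The metabolic list with URS1-regulated genes had a lower median in the fit than the meiotic lists, and none of its 12 genes passed the test. A URS1 core within 600 bases was found in 4 of the 12 promoters (33.3%), those of *INO1*, *CAR1*, *SIP4* and *ACS1*. *INO1* was at 948 and 827 FPKM with Chd1-Ume6, 2286 FPKM with the inactive fusion, 2390 and 3476 FPKM in *ume6* and 14.9 FPKM in wild type. The Chd1-Ume6 libraries were 3.25-fold lower than *ume6* in the fit (-1.70 ± 0.47 SE, limma adjusted p = 0.191), yet still far above wild type. *CAR1* was at 288 and 189.8 FPKM with Chd1-Ume6, 504 FPKM with the inactive fusion, 562 and 711 FPKM in *ume6* and 115 FPKM in wild type (-1.43 ± 0.33, adjusted p = 0.111). *SIP4*, an activator of gluconeogenesis genes, differed by -0.95 ± 0.26 (adjusted p = 0.193) and *ACS1*, an acetyl-CoA synthetase gene, by -0.95 ± 0.31 (adjusted p = 0.312). Of the 12, 8 were lower in both tables and 1 was higher (66.7% and 8.33%, against 25.8% and 38.9% of all genes). The median was -0.57, with -0.30 in the first table and -0.67 in the workbook. The higher one, *POT1*, a peroxisomal thiolase gene, lies on chromosome IX, and its 0.81 turned to -0.13 with chromosomes centred.

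Genes next to these pathways went the same way in part. The 11 phospholipid synthesis genes, which share *INO1* and *CHO1* with the list above, had a median of -0.49 with 8 lower in both tables. *ITR1*, an inositol transporter gene, was at 453 and 340.1 FPKM with Chd1-Ume6, against 661 and 802 FPKM in *ume6* (-0.89 ± 0.36 SE, limma adjusted p = 0.456), and *CHO1*, the phosphatidylserine synthase gene, differed by -0.83 ± 0.51. Of 14 genes for acetate use and gluconeogenesis, 7 were lower and 3 higher in both tables (median -0.29). Of all genes, 25.8% were lower and 38.9% higher in both tables. *ADY2* was at 11.0 and 20.9 FPKM with Chd1-Ume6, 30.4 FPKM with the inactive fusion and 45.3 and 274 FPKM in *ume6*. The *ume6* value of 274 FPKM comes from the workbook library in which chromosome III stood high, and with chromosomes centred the difference was -2.40 (adjusted p = 0.131). *MDH2*, a cytosolic malate dehydrogenase gene, was at 23.5 and 37.4 FPKM with Chd1-Ume6, against 38.6 and 95.5 FPKM in *ume6* (-1.01 ± 0.30, adjusted p = 0.235).

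Over all 227 tested genes with the authors' motif entry, whose motif is not named in the header, the difference was small. Of them 91 were lower and 67 higher in both tables (40.1% and 29.5%, against 25.8% and 38.9% of all genes), with a median of -0.04, or -0.11 with chromosomes centred. Of them 222 have a reference promoter, and these were grouped by the distance of the nearest URS1 core, in classes chosen after seeing the data. The 70 motif genes whose nearest core lay within 200 bases of the start codon had a median of -0.29, with 43 lower and 11 higher in both tables, and 19 of them are early meiotic genes. The 61 with the nearest core farther than 200 and up to 400 bases away had a median of -0.03, the 29 beyond that and up to 600 bases had 0.09, and the 62 with no core in the window had 0.11. Genes without the motif entry had medians of -0.02 (102 genes), 0.00 (180 genes), 0.08 (209 genes) and 0.07 (5015 genes) in the same order. With the inactive fusion minus *ume6*, which shares the *ume6* columns, the 70 genes had a median of -0.21. *IME2*, with cores at 455 and 550 bases, does not belong to the nearest class.

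Oxidative stress genes had the highest median of the lists, chromosomes apart. Yap1 is a transcription factor that turns on reductases, peroxidases and drug exporters when cells meet oxidants or reactive aldehydes. Of 30 oxidative stress genes, 27 were higher with Chd1-Ume6 in both tables (90%, against 38.9% of all genes) and 0 lower in both (against 25.8%). Their median was 1.22, or 0.96 with chromosomes centred, against 0.06 and -0.01 for all genes. At least 2-fold higher in both tables were 12 of the 30, against 0.945% of all genes. The 6 that rose by limma were *GRE2*, *FLR1*, *FRM2*, *HBN1*, *AAD4* and *DOT5*, while 0.208% of all genes rose. *DOT5* lies on chromosome IX. With chromosomes centred, only *GRE2*, *HBN1* and *AAD4* of the 6 were called. Against the wild type column of the first table, which all 3 values share, the list's median was 1.82 with Chd1-Ume6, -0.02 with the inactive fusion and 0.69 in *ume6*. The list was drawn up with earlier results of these data known, so its count is not independent evidence of its direction.

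*GRE2*, which encodes a methylglyoxal reductase, was at 796 and 822 FPKM with Chd1-Ume6, 44.0 FPKM with the inactive fusion, 192 and 66.1 FPKM in *ume6* and 75.3 FPKM in wild type. It rose 7.12-fold (2.83 ± 0.38 SE, limma adjusted p = 0.0403, n = 2 against 2), and the Chd1-Ume6 libraries lay above all other columns. In wild type cells with Chd1-Ume6 it was at 154 and 138 FPKM. YOL150C, which is not in the reference table, was at 531 and 608 FPKM with Chd1-Ume6, against 111 and 48.5 FPKM in *ume6*, a rise of 2.93 ± 0.31 (adjusted p = 0.0172). Its number places it beside *GRE2* (YOL151W), and since it is not stated whether counting used strand, reads of the pair may not be separable. *FLR1*, a drug exporter gene, was at 141 and 232 FPKM with Chd1-Ume6, against 57.0 and 43.9 FPKM in *ume6*, a rise of 1.83 ± 0.26 (adjusted p = 0.0456).

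*FRM2* and *HBN1* encode nitroreductase-like proteins and lie together on chromosome III. *FRM2* was at 112 and 396 FPKM with Chd1-Ume6, against 27.5 and 50.9 FPKM in *ume6*, a rise of 2.47 ± 0.35 (SE, limma adjusted p = 0.0468). *HBN1* was at 117 and 184 FPKM, against 35.4 and 57.4 FPKM in *ume6*, a rise of 1.68 ± 0.22 (adjusted p = 0.0362). Because chromosome III stood high in the workbook *ume6* library, centring made both differences larger, 2.86 (adjusted p = 0.0719) and 2.08 (adjusted p = 0.0438). *AAD4*, of the aryl-alcohol dehydrogenase family, was at 79.9 and 129 FPKM with Chd1-Ume6, 5.17 FPKM with the inactive fusion and 20.1 and 13.4 FPKM in *ume6*, a rise of 2.56 ± 0.29 (adjusted p = 0.0207). *AAD6* and *AAD16* of the same family, which lie together and may share reads, differed by 2.54 ± 0.44 and 2.66 ± 0.43 (adjusted p = 0.0765 and 0.0726).

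*OYE3*, an old yellow enzyme that reduces unsaturated aldehydes and ketones, was not called. It was at 1402 and 2611 FPKM with Chd1-Ume6, 39.1 FPKM with the inactive fusion, 319 and 207 FPKM in *ume6* and 8.73 FPKM in wild type (2.89 ± 0.65 SE, limma adjusted p = 0.102). *OSI1*, which is on no list, was at 738 and 1800 FPKM with Chd1-Ume6, 38.5 FPKM with the inactive fusion and 209 and 133 FPKM in *ume6* (2.78 ± 0.44, adjusted p = 0.0726). For both genes the Chd1-Ume6 libraries lay above all others, and the *ume6* libraries above wild type and the inactive fusion. In *rrp6* with Chd1-Ume6, *OSI1* was at 26.2 and 31.9 FPKM, against 38.0 and 45.2 FPKM in *rrp6*.

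The Yap1 site TTACTAA, searched on both strands within 600 bases, was found in 18 of the 29 redox genes with a reference promoter (62.1%) and in 13.7% of all promoters. The list was partly built from known Yap1 targets. Runs around these sites are shown for genes that rose or were 2-fold higher in both tables, with each site in capitals and 10 bases on each side. The *OSI1* promoter holds 5 sites between 222 and 162 bases before the start codon (chrXI:304882-304968, plus strand). The *FLR1* site lies at 365 bases (chrII:254558-254584, minus strand), the nearest *HBN1* site at 234 bases (chrIII:74204-74230, minus strand) and the nearest *OYE3* site at 148 bases (chrXVI:227503-227529, minus strand).
OSI1: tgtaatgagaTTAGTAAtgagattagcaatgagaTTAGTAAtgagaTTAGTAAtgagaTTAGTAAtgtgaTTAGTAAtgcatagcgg
FLR1: atgatggtgaTTACTAAgtataggaat
HBN1: tataccgcttTTACTAAtgattattcg
OYE3: gcaataaccaTTACTAAgcacagtgtt
No match to these letters was found before *GRE2* in this window. *OSI1* and *OYE3* also hold a URS1 core, 95 and 279 bases before the start codon, with no motif entry from the authors.

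**Figure D4:**
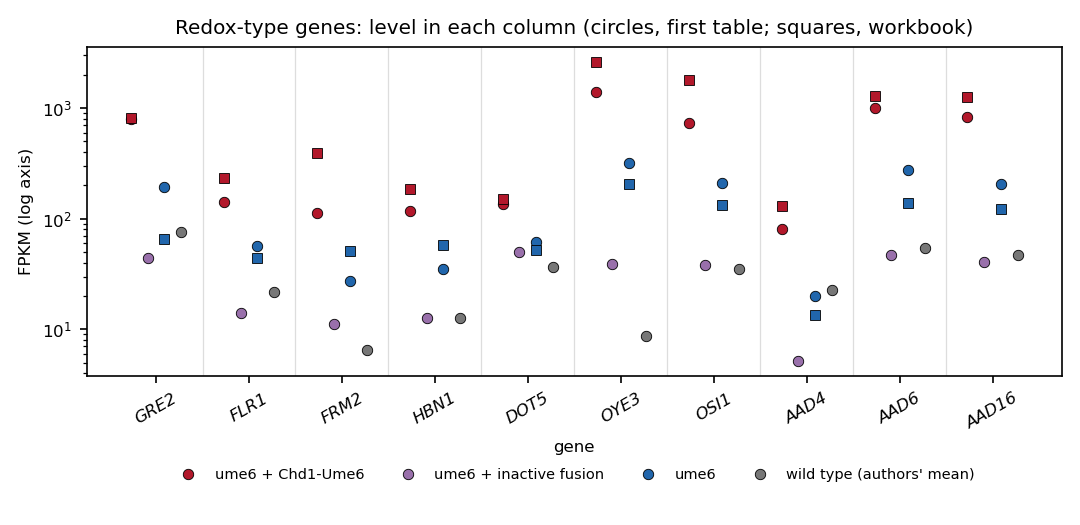
FPKM on a log axis of 10 redox-type genes in ume6 with Chd1-Ume6, ume6 with the inactive fusion, ume6 and wild type (authors' mean). Circles are the first table and squares the workbook. For GRE2 the libraries with Chd1-Ume6 (796 and 822) lie above ume6 (192 and 66.1) and above the inactive fusion (44.0).

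Phosphate genes were lower with the fusion. Under low phosphate the activator Pho4 turns on secreted phosphatases and phosphate transporters. Of 15 phosphate genes, 12 were lower in both tables (80%, against 25.8% of all genes) and 0 higher (against 38.9%). Their median was -0.61, and none passed the limma test. Against the wild type column the list's median in the first table was -1.90 with Chd1-Ume6, -0.40 with the inactive fusion and -1.22 in *ume6*. *PHO5*, the secreted acid phosphatase gene, was at 28.8 and 23.2 FPKM with Chd1-Ume6, 714 FPKM with the inactive fusion, 122 and 105 FPKM in *ume6* and 356 FPKM in wild type (-2.09 ± 0.46 SE, limma adjusted p = 0.094). *PHO84*, the high-affinity phosphate transporter gene, was at 374 and 61.7 FPKM with Chd1-Ume6, against 917 and 461 FPKM in *ume6* (-2.09 ± 0.85, adjusted p = 0.475). *PHO89*, a sodium-dependent phosphate transporter gene, was at 3.04 and 3.45 FPKM, against 15 and 25.2 FPKM in *ume6*, and *SPL2*, a regulator of phosphate transport, at 6.82 and 5.36 FPKM, against 38.7 and 29.3 FPKM. These 4 genes were named for their large negative differences, and both Chd1-Ume6 libraries lay below both *ume6* libraries, as for 13.9% of all genes. These genes also varied between like libraries, *SPL2* for example at 70.6 and 5.37 FPKM in the 2 *rrp6* libraries.

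The Pho4 site, searched as CACGTG and CACGTT on both strands within 600 bases, was found in all 15 of these promoters and in 24.4% of promoters overall. The list was made of genes of the phosphate response that Pho4 drives, so this share follows in part from their choice. Whether Pho4 acted differently here was not tested. The run with the CACGTG copies of *PHO84* that lie 436 and 414 bases before the start codon (chrXIII:26199-26246, minus strand) and that of the *PHO5* copy at 253 bases (chrII:431189-431214, minus strand) are shown with the sites in capitals.
PHO84: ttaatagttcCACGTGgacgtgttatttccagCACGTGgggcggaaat
PHO5: ttggcactcaCACGTGggactagcac

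Amino acid synthesis genes, many of them targets of the activator Gcn4, were lower as a group. Of 40 tested, 35 were lower in both tables (87.5%, against 25.8% of all genes) and 2 higher (5%, against 38.9%). Their median was -0.46, and none passed the limma test. *HIS4*, of histidine synthesis, was at 68.7 and 77.2 FPKM with Chd1-Ume6, against 214 and 321 FPKM in *ume6* (-1.83 ± 0.45 SE, limma adjusted p = 0.133), and -1.44 with chromosomes centred. *ARG4*, of arginine synthesis, was at 104 and 102 FPKM, against 251 and 211 FPKM in *ume6* (-1.16 ± 0.32, adjusted p = 0.195). *ILV6*, a regulatory subunit of branched-chain amino acid synthesis on chromosome III, was at 348 and 355 FPKM, against 529 and 1344 FPKM, where the value of 1344 FPKM again comes from the workbook *ume6* library (-1.26, or -0.86 with chromosomes centred). The Gcn4 site TGACTC, searched on both strands, was found in 34 of these 40 promoters and in 15.3% of all promoters. Because many of the listed genes are Gcn4 targets, this share follows in part from their choice. *URA1*, of uracil synthesis, was also lower at 90.0 and 85.9 FPKM with Chd1-Ume6, against 183 and 291 FPKM in *ume6* (-1.38 ± 0.28, adjusted p = 0.0827).

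Genes for translation divided by compartment. Of 67 mitochondrial ribosomal protein genes, 59 were higher with Chd1-Ume6 in both tables (88.1%, against 38.9% of all genes) with a median of 0.41. Of them 1 rose, *RSM25* of chromosome IX. *MRP13* was at 42.7 and 43.0 FPKM with Chd1-Ume6, against 27.8 and 23.6 FPKM in *ume6* (0.72 ± 0.20 SE, limma adjusted p = 0.196). Of 137 cytosolic ribosomal protein genes, 82 were lower in both tables (59.9%, against 25.8% of all genes) and 10 higher. Their median was -0.18, with -0.04 in the first table and -0.32 in the workbook. The 5 on chromosome IX include *RPL16A*, at 1452 and 1303 FPKM with Chd1-Ume6, against 860.1 and 785 FPKM in *ume6*, and its difference of 0.74 turned to -0.20 with chromosomes centred. Many of these genes have a near-identical copy, so their values are uncertain.

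Proteasome genes were slightly higher, with 26 of 32 higher in both tables (81.2%), 0 lower and a median of 0.20. Of all genes, 38.9% were higher and 25.8% lower in both tables. *RPN2*, the proteasome gene on chromosome IX, was at 372 and 345 FPKM, against 177 and 167 FPKM in *ume6* (1.06 ± 0.19 SE, limma adjusted p = 0.0765), and 0.11 with chromosomes centred. *SDS3*, a subunit of the Rpd3 deacetylase complex that Ume6 recruits, lies on chromosome IX as well and was at 35.5 and 34.5 FPKM, against 21.1 and 13.5 FPKM in *ume6* (1.01 ± 0.21, adjusted p = 0.0827), and 0.06 with chromosomes centred. Ribosome biogenesis genes had 30 of 49 higher in both tables and 5 lower (61.2% and 10.2%, median 0.12). Respiratory chain genes had 17 of 34 higher and 5 lower (50% and 14.7%, median 0.17). Sulfur and methionine genes had 11 of 19 higher and 5 lower (57.9% and 26.3%, median 0.19), the lower share being near that of all genes. The first-table and workbook medians differed in sign for general stress (-0.19 and 0.20), iron uptake (0.08 and -0.36) and histone genes (0.03 and -0.04). They also did so for hexose transporters (-0.10 and 0.27), a-cell markers (-0.16 and 0.47) and genes of chromatin complexes (-0.0039 and 0.0072). The strand exchange and double-strand break lists given above did likewise.

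**Figure D5:**
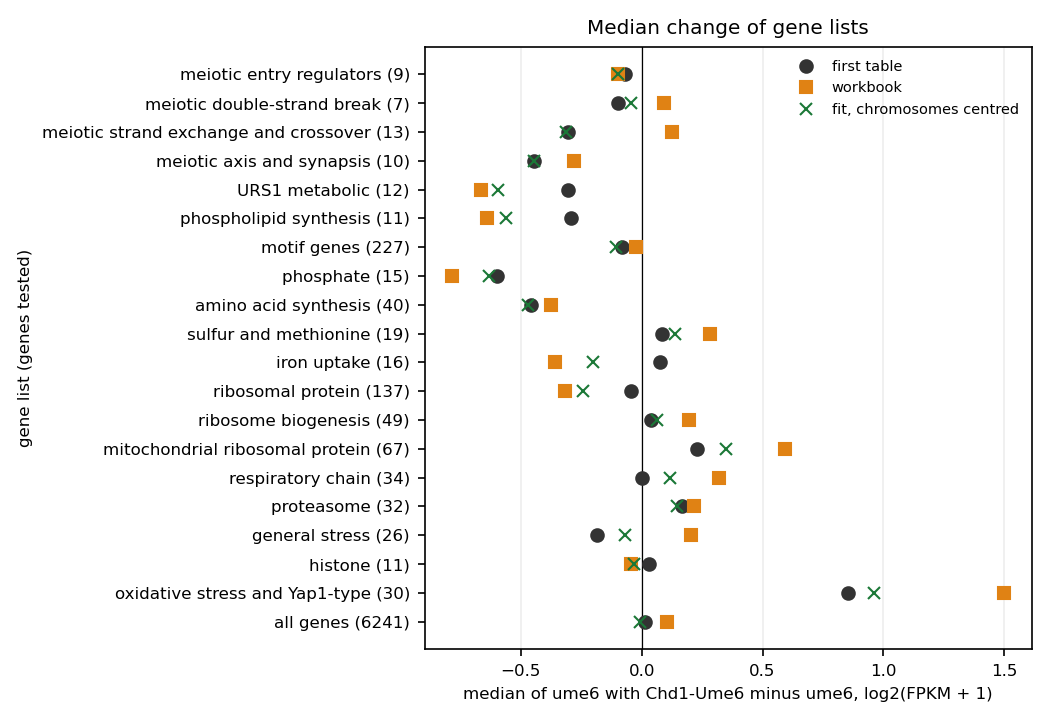
Median difference of ume6 with Chd1-Ume6 minus ume6, in log2(FPKM + 1), for gene lists with the number of genes tested. Circles are the first table, squares the workbook and crosses the fit with chromosomes centred. Oxidative stress genes lie furthest to the right (1.5 in the workbook) and phosphate genes furthest to the left (-0.78 in the workbook).

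Summed levels of a-cell markers were high in both groups, and those of alpha-cell and sporulating-cell markers were low. The 7 a-cell markers summed to 1579 and 2129 FPKM with Chd1-Ume6, against 2050 and 1639 FPKM in *ume6*. In *ume6* these 7 ran from *ASG7* (16.9 and 19.8 FPKM) to *MFA2* (1121 and 1001 FPKM). The alpha-cell marker *SAG1*, at 16.4 and 16.9 FPKM in *ume6*, was near *ASG7*. The 4 alpha-cell markers summed to 37.6 and 36.2 FPKM, against 33.5 and 29.8 FPKM, and the 10 markers of sporulating cells to 63.2 and 68.5 FPKM, against 56.6 and 51.1 FPKM in *ume6* and 64 FPKM in wild type. None of these markers was at 0, and none passed the limma test.

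Several URS1 genes were lower with the fusion in *ume6* but higher with it in *rrp6*. In *rrp6* alone 38 genes rose with the fusion (0.609%) and 6 fell (0.0961%). The difference of the fusion's effect in *ume6* from that in *rrp6* was tested in the same fit. Here 13 genes passed, 2 higher (0.032%) and 11 lower (0.176%), while 737 were at an unadjusted p under 0.05. Of the 13, 6 carry the motif entry, as do 227 of all 6241 genes tested. YCR101C lies on chromosome III (-2.67, or -2.27 with chromosomes centred), which holds 169 of the genes tested. *IME2* was at 7.78 and 8.72 FPKM in *rrp6* with Chd1-Ume6, against 3.44 and 3.06 FPKM in *rrp6*, so it was higher with the fusion there and lower with it in *ume6*. The effects differed by -2.26 ± 0.28 (SE, limma adjusted p = 0.0327). *HED1* was at 4.98 and 4.38 FPKM in *rrp6* with Chd1-Ume6, against 0.631 and 0.993 FPKM in *rrp6*, and its effects differed by -2.68 ± 0.30 (adjusted p = 0.0208). *SAE3* was at 6.17 and 9.23 FPKM, against 0.890 and 0.714 FPKM, and its effects differed by -3.14 ± 0.35 (adjusted p = 0.0208). In level all 3 genes were lower in *rrp6* with the fusion than in *ume6* with it.

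*PHO92*, an RNA-binding protein gene of meiosis, and *SRT1*, a cis-prenyltransferase gene, followed the same pattern. *PHO92* was at 42.6 and 54.6 FPKM in *ume6* with Chd1-Ume6, against 103 and 112 FPKM in *ume6*, and at 8.86 and 13.0 FPKM in *rrp6* with Chd1-Ume6, against 0.813 and 1.11 FPKM in *rrp6*. The effects differed by -3.73 ± 0.35 (SE, limma adjusted p = 0.0208). *SRT1* was at 15.3 and 16.7 FPKM in *ume6* with Chd1-Ume6, against 32.9 and 38.1 FPKM in *ume6*, and at 6.29 and 7.12 FPKM in *rrp6* with Chd1-Ume6, against 1.44 and 1.26 FPKM in *rrp6*. Each carries a URS1 core, at 229 bases (chrIV:1224598-1224643, minus strand) and 144 bases (chrXIII:469595-469640, minus strand).
PHO92: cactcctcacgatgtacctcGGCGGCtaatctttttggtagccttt
SRT1: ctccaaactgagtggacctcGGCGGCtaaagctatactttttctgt
*ADE17*, of purine synthesis and without a URS1 core in the window, behaved likewise at 36.9 and 29.5 FPKM in *ume6* with Chd1-Ume6, against 80.0 and 96.4 FPKM in *ume6*, and at 51.9 and 47.8 FPKM in *rrp6* with Chd1-Ume6, against 19.4 and 13.0 FPKM in *rrp6*. The early meiotic list had a median of -0.19 for the fusion in *ume6* and of 0.54 for the fusion in *rrp6*. The 13 calls were all among 21 calls with chromosomes centred, and 0 passed after quantile normalization. The count was 60 without *rrp6* library 1, 3 without *rrp6* library 2, 7 when a library of the fusion in wild type was left out, and 0 or 1 without any of the other 6 libraries.

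Against the inactive fusion, 22 genes differed, 20 higher (0.32%) and 2 lower (0.032%) with Chd1-Ume6, and 8 of the 20 lie on chromosome IX. The inactive fusion is 1 library, so the spread in this test comes from the other groups and that library is assumed to vary like them. With chromosomes centred 11 were called, 0 of them on IX. The inactive fusion against *ume6* gave 3 genes that rose (0.0481%). The 22 became 4 and 5 without either Chd1-Ume6 library, 10 without either *ume6* library, 9 and 11 without either library of the fusion in *rrp6*, and 35 without either *rrp6* library. *GRE2* and *AAD4* were higher by 4.44 and 4.07 (limma adjusted p = 0.0141 and 0.00702) and *PHO5* was lower by -4.77 (adjusted p = 0.0219). *CHD1*, which reads of the fusion fall on, was higher in the inactive library (1608 FPKM) than with Chd1-Ume6 (836 and 1075 FPKM). Such features of the single inactive library and the lack of catalysis cannot be told apart. Of the genes called against the inactive fusion, 0 carry the motif entry, which 227 of all 6241 genes carry. Among those called, *OSI1* and *RSM25* of chromosome IX hold a URS1 core, as do 11.4% of all promoters. *IME2* differed by -0.87 (adjusted p = 0.194) and *INO1* by -1.51 (adjusted p = 0.304).

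Differences that were large in the first table mostly had the same direction in the workbook, and the reverse choice gave smaller medians. Outside chromosomes III and IX, the 57 genes that were at least 2-fold lower in the first table had a median of -1.04 in the workbook. Of these 57, 52 were lower there, against 40.1% of all genes outside III and IX. The 30 that were at least 2-fold higher in the first table had a median of 2.44 in the workbook, and 28 were higher there, against 59.9% of all such genes. Chosen in the workbook instead, 194 genes that were at least 2-fold higher had a median of 0.33 in the first table. There 153 were higher, against 51.8% of all such genes. The 136 that were at least 2-fold lower had a median of -0.43, with 110 lower, against 48.2% of all such genes. Over the 5841 genes outside III and IX the 2 differences had a Pearson r of 0.508, a value across genes, which are not independent replicates. The 2 libraries with Chd1-Ume6 had 216 genes at least 2-fold apart and the 2 *ume6* libraries 203.

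The number of genes called moved with the columns in the fit. With the 4 columns alone, paired by table and with 1 residual degree of freedom, 301 of 6318 genes passed, 224 higher and 77 lower. Of the 301, 164 lie on chromosome IX, which holds 239 of the 6318. The motif entry is carried by 31 of the 301 and by 232 of the 6318. The count of 14 was 6 without the first-table library of *ume6* with Chd1-Ume6 and 1 without the workbook one, 3 without the first-table *ume6* library and 2 without the workbook one. It was 3 when any library of the fusion in *rrp6* or in wild type cells was left out.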

How the data were processed

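Per the labels' protocols, libraries were strand-specific (dUTP) and made from RNA depleted of ribosomal RNA. Cufflinks 2.2.1, Cuffdiff, TopHat2, CASAVA and SAMtools appear without roles in the submitters' processing notes. Neither genome build nor strand setting is given in these sources. The authors deposited a first table of log2 abundances and a workbook headed as log2 FPKM. The *ume6* sheet of the workbook was read as log10 FPKM as deposited, since its standard deviation was 0.682 against 2.11 to 2.29 in the other sheets. Read so, its FPKM summed to 938206, and every column summed to between 889087 and 1216140.

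Columns were matched to groups by their headers, which do not say which isolate was used. Missing values were left out. Genes with a value in all 15 columns and at least 1 FPKM in at least 2 of them were kept. limma 3.58.1 (R 4.3.3) was fitted to log2(FPKM + 1) of all 15 columns with terms for group and table, a trend and 4 residual degrees of freedom, with a Benjamini-Hochberg adjusted p under 0.05 as the threshold. The fit was tested on simulated data. Within-table differences carry no test. Chromosomes came from the systematic names and were the same as in the reference for all 5992 matched genes. Promoters were the 600 bases before the start codon in R64, searched with biopython 1.88.

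Named genes were those past the threshold, the 10 with the largest rises and falls that were 2-fold in both tables, up to 4 members of each list, early meiotic and URS1 metabolic genes, and engineered genes. *PHO92*, *SRT1* and *ADE17* were named as calls of the difference between backgrounds. The members and lists were chosen with earlier results of these data known. Alternatives were the pseudocount, filter, normalization, table term, replicate block, trend, missing values and leaving out each library, and, added after seeing the data, chromosome centring and leaving out chromosomes III and IX.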

Additional observations from a re-analysis of the deposited data

Results flagged for a closer look

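The effect of the fusion in *ume6* differed from its effect in *rrp6*, by limma over all genes, for 13 genes, each given as the first effect minus the second. Lower were *PHO92* (-3.73), *NCE103* (-3.31), *SAE3* (-3.14), YDR015C (-2.99), *ADE17* (-2.98), *SRT1* (-2.82), *HED1* (-2.68), YCR101C of chromosome III (-2.67, or -2.27 with chromosomes centred), *VMR1* (-2.28), *PCA1* (-2.27) and *IME2* (-2.26). Higher were *MRH1* (2.30) and *PMP2* (1.97). *NCE103*, the carbonic anhydrase gene, was at 79.4 and 308 FPKM in *ume6* with Chd1-Ume6, against 93.9 and 451 FPKM in *ume6*, and at 642 and 547 FPKM in *rrp6* with Chd1-Ume6, against 92.4 and 65.3 FPKM in *rrp6*. *MRH1* and *PMP2*, both of plasma membrane proteins, were at 470.0 and 488 FPKM and at 869 and 871 FPKM in *rrp6* with Chd1-Ume6, against 1500 and 2034 FPKM and 2302 and 2199 FPKM in *rrp6*. YDR015C is not in the reference table, and its number places it beside *HED1* (YDR014W-A), so reads of the pair may not be separable.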

How the results depend on the processing

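The count of 14 changed genes was 23 with a pseudocount of 5, 7 after quantile normalization, 4 with the replicate block on isolate numbers, 301 with only the 4 columns paired by table, 7 with chromosomes centred and 5 without the genes of chromosomes III and IX. Leaving out each library gave 1 to 18. The count of 13 differences between backgrounds was 0 after quantile normalization, 1 with the replicate block, 21 with chromosomes centred and 0 to 60 with a library left out. The count of 22 against the inactive fusion was 45 with no table term, 14 after quantile normalization, 11 with chromosomes centred, 10 without chromosomes III and IX, and 4 to 35 with a library left out. The motif median was -0.11 after quantile normalization and with chromosomes centred, and the chromosome IX median was 0.83 with a pseudocount of 5 and -0.0050 with chromosomes centred. With a library left out they ran from -0.08 to -0.04 and from 0.86 to 1.02, and the early meiotic median from -0.22 to -0.11. The 93 genes 2-fold apart in both tables became 54 without chromosomes III and IX. With chromosomes centred *HOP1* (-0.11), *SPO22* (-0.35), *POT1* (-0.13) and *RPL16A* (-0.20) turned round, and *NCE103* ran from -0.79 to 0.0050 with a library left out, the positive value being that without the workbook *ume6* library. Centring removes whole-chromosome shifts by construction, and for the other settings the cause was not tested. Of 1588 single-gene values under alternatives, 1396 kept their direction and their side of the threshold. Same-table columns of the 2 groups deviated together (correlation 0.447), with only 2 pairs. FPKM carry no depth, so no detection limit can be given for low genes.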
